A study of Mus musculus with 6 samples.

Results

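Oligodendrocyte lineage genes were followed in embryonic mouse cerebral cortex, as a set of 9 genes chosen by name: Pdgfra, Olig1, Olig2, Sox10, Gpr17, Lhfpl3, Neu4, Matn4 and Mbp. All 9 were among the 27179 genes of the deposited table. Levels are in CPM, counts per 1e6 reads on the deposited table's own scaling, so that libraries of different depth can be compared. A mean of 1 CPM was required for testing. Of the 9 genes 8 reached it, as did 13885 genes in all, and Neu4 did not. RNA came from cortex of C57BL/6N embryos at E18.5, and every embryo carried Cap1 alleles flanked by loxP sites. The CAP1-KO group (3 libraries, FCRE3, FCRE4 and FCRE5) also carried Nestin-Cre, a recombinase driven by a promoter active in neural progenitors, and the Control group (3 libraries, FF1, FF2 and FF4) did not carry Cre. CAP1 is a protein that helps to turn over actin filaments, and the design asks how its loss alters gene expression in this tissue. Since there were no embryos with Cre and unmodified Cap1, effects of the transgene and of CAP1 loss cannot be told apart. Cells in which Cre was not active keep intact Cap1, and the labels do not name the deleted exons.

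Oligodendrocytes, the cells that wrap axons in myelin, arise from precursors that are born in the ventral forebrain first and in the cortex around birth. Precursors are recognised by the receptor PDGFRA and the transcription factors OLIG1, OLIG2 and SOX10. As they commit, they pass through a stage with high GPR17, and mature cells make myelin proteins such as myelin basic protein. At E18.5 the mouse cortex therefore holds mostly precursors and little myelin.

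The libraries held between 33509504 and 36302598 reads in CAP1-KO and between 32443864 and 35229159 in Control. Cap1 averaged 85.1 ± 1.999 CPM in CAP1-KO and 184 ± 16.2 CPM in Control (SD, n = 3 each), which left 46.2% of the Control level (limma, Benjamini-Hochberg adjusted p = 0.000283). FF4 stood apart from the other Control libraries. The summed level of 8 cortical projection neuron markers, among them Tbr1 and Neurod6, ranged over 1777 to 1966 CPM in CAP1-KO libraries and was 1797 CPM in FF4, against 2653 CPM in FF1 and 2723 CPM in FF2. That of 15 ventral forebrain and striatal markers, of which Gad1, Dlx1, Gad2 and Lhx6 were the most abundant, ranged over 760.5 to 852.8 CPM in CAP1-KO libraries and was 857 CPM in FF4, against 557 CPM in FF1 and 494 CPM in FF2. By both sums FF4 thus lay at or near the levels of the CAP1-KO libraries. Not every marker followed its sum. Bcl11b was 364 CPM in FF4, against 383 and 376 CPM in FF1 and FF2 and 315 to 356 CPM in CAP1-KO. Ppp1r1b was 42.9 CPM in FF4, against 46.9 and 46.4 CPM in FF1 and FF2 and 26.7 to 30.7 CPM in CAP1-KO. Lhx6 was similar in all libraries. Ventral progenitors also express Olig1 and Olig2, and 1 of the 15 ventral markers, Ppp1r1b, passed the test, lower in CAP1-KO; the part of these differences in the values of the lineage genes was not tested. Values against FF4 alone are therefore given for each tested member, and for each lineage list by its median and its most abundant genes.

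None of the 8 tested lineage genes passed the test between CAP1-KO and Control. By comparison, 134 of 13885 genes passed at a limma adjusted p under 0.05, which is 0.965% of those tested, with 0.562% higher and 0.403% lower. Among the 8 members, 6 had a negative log2 fold change and 2 a positive one, while 51.7% of all tested genes had a negative one. Their median log2 fold change, on the log2(CPM + 1) scale, was -0.15, against -0.01 over all tested genes. Without adjustment, 2 members (Olig1 and Olig2) had a p under 0.05, as did 23% of all tested genes. Groups did not overlap for 1 member, Olig2, which was lower in CAP1-KO; this was so for 25.6% of all tested genes, 14.6% with CAP1-KO lower. In bulk tissue, fewer cells of the lineage and less RNA per cell cannot be told apart.

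**Figure D1:**
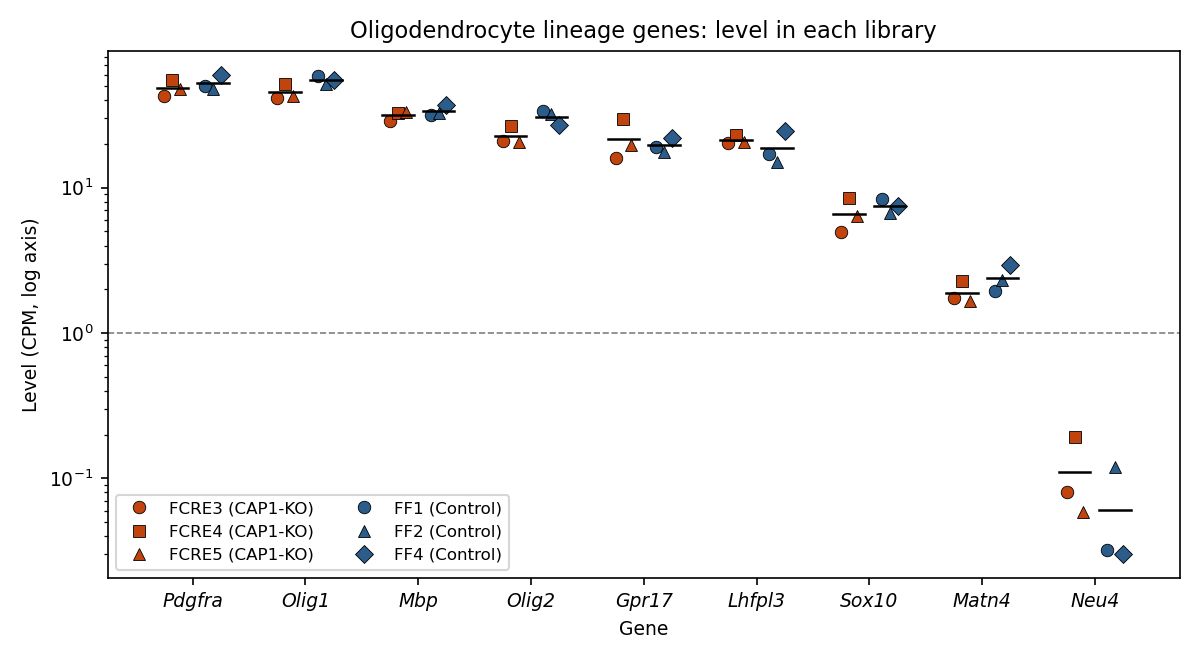
Level of each of the 9 genes in CPM (log axis) in every library, with CAP1-KO libraries in orange left of Control libraries in blue; black lines are group means and the dashed line marks 1 CPM, the mean needed for testing. The groups overlap for every tested gene but Olig2, and Neu4 lies far below the dashed line in all 6 libraries.

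Upstream sequence is shown for Olig2 and Lhfpl3, whose log2 fold changes were the lowest and the highest of the tested members (values below); neither passed the test. The sequences are RefSeq's for GRCm38.p6, 250 bases ending at the start site, read 5′ to 3′ on the plus strand, from chr16:91225300-91225549 for Olig2 and chr5:22745804-22746053 for Lhfpl3. Capitals mark matches on either strand to CANNTG, the E-box letters that bHLH proteins such as OLIG2 bind, or to AACAAT, letters bound by SOX proteins, which reads as its complement on the strand shown for Olig2.
Olig2: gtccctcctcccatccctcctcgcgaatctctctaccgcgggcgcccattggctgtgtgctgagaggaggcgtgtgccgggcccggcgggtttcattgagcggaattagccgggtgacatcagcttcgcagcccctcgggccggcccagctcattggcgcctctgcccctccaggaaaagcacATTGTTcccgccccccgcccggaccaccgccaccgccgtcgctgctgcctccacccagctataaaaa
Lhfpl3: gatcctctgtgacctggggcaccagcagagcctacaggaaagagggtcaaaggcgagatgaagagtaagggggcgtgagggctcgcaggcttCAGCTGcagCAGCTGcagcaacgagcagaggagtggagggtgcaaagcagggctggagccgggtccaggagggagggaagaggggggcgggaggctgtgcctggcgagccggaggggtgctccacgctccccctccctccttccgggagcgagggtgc
Of the 9 members, 5 (Pdgfra, Olig2, Lhfpl3, Neu4 and Matn4) had a promoter window of this kind, 6 windows in all, reaching 50 bases past the start site. CANNTG was found in 5 of these 6 windows and in 72.3% of 32851 promoter windows, and AACAAT in 1 of 6 and in 10.7%. ACAAAG, other letters bound by SOX proteins, was found in 0 of 6 windows and in 18.7% of all. The CArG box, the motif that SRF binds, was found in 0 of 6 windows and in 1.63% of all; a window without the letters says nothing about binding elsewhere.

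Among the transcription factors, Olig2 had the lowest fold change of the members. Olig2, a bHLH factor that specifies the lineage, lies on chromosome 16 (91225550 to 91228677, GRCm38), close to its paralog Olig1. Olig2 measured 20.9, 26.7 and 20.6 CPM in FCRE3, FCRE4 and FCRE5, against 33.8, 32.0 and 26.9 CPM in FF1, FF2 and FF4. All CAP1-KO libraries lay below all Control libraries, but FCRE4 and FF4 nearly touched. The CAP1-KO mean was 73.5% of the Control mean, with a log2 fold change of -0.43 (SE 0.12, 95% interval -0.71 to -0.15, limma adjusted p = 0.111). Against Control, Olig2 passed only when FF4 was left out, with a log2 fold change of -0.52 (limma adjusted p = 0.00713). Against FF4 alone the log2 fold change was -0.25. Without FF4, however, 28.2% of all tested genes passed, and 2 of the 8 tested members, Olig2 and Lhfpl3, were a share near that.

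Olig1, also a bHLH factor of the lineage (chromosome 16, 91269769 to 91271939), measured 41.3, 52.1 and 42.6 CPM in FCRE3, FCRE4 and FCRE5, against 58.6, 52.0 and 55.4 CPM in FF1, FF2 and FF4. FCRE3 and FCRE5 lay below every Control library, while FCRE4 was level with FF2. The log2 fold change of Olig1 was -0.29 (SE 0.09, 95% interval -0.50 to -0.07, limma adjusted p = 0.134), and it was also -0.29 against FF4 alone (limma adjusted p = 0.616). Without FCRE4 it was -0.39, with a limma adjusted p of 0.0483, in a comparison in which 1.82% of all tested genes passed. Within a library, Olig2 had 0.508, 0.513 and 0.483 times the CPM of Olig1 in FCRE3, FCRE4 and FCRE5, against 0.576, 0.617 and 0.487 times in FF1, FF2 and FF4. The ratio in FF4 thus fell within the range of the CAP1-KO libraries, apart from FF1 and FF2.

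Sox10, an HMG-box factor that drives myelin genes (chromosome 15, 79154913 to 79164490), measured 4.93, 8.44 and 6.35 CPM in FCRE3, FCRE4 and FCRE5, against 8.43, 6.70 and 7.49 CPM in FF1, FF2 and FF4. FCRE4 was the highest of all 6 libraries by a narrow margin over FF1, and FCRE3 the lowest. The log2 fold change of Sox10 was -0.19 (SE 0.17, 95% interval -0.59 to 0.20, limma adjusted p = 0.528), and also -0.19 against FF4 alone (limma adjusted p = 0.864). Single CAP1-KO libraries set its size: it was -0.37 without FCRE4 (limma adjusted p = 0.194) and -0.03 without FCRE3 (limma adjusted p = 0.939). Sox10 is also a gene of Schwann and neural crest cells, whose markers Cdh19 and Foxd3 stayed at or below 0.233 and 0.0874 CPM in every library. All 8 markers on that list summed to between 15.6 and 16.8 CPM in CAP1-KO and between 16.4 and 19.0 CPM in Control, mostly from Ngfr and Prx.

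The receptors of the lineage overlapped between the groups. Pdgfra, the receptor through which PDGF-A drives precursor division (chromosome 5, 75151322 to 75198206), measured 43.0, 54.9 and 48.2 CPM in FCRE3, FCRE4 and FCRE5, against 49.9, 47.7 and 60.0 CPM in FF1, FF2 and FF4. The highest library was FF4 and the lowest FCRE3. Its log2 fold change was -0.11 (SE 0.11, 95% interval -0.36 to 0.15, limma adjusted p = 0.592), and -0.30 against FF4 alone (95% interval -0.60 to -0.01, limma adjusted p = 0.590). Without FF4 it was -0.01 (limma adjusted p = 0.942). Pdgfra is also expressed by meningeal fibroblasts. A list of 10 markers of those cells summed to 20.6, 98.7 and 88.2 CPM in FCRE3, FCRE4 and FCRE5, against 17.7 to 19.2 CPM in Control; Alx4 had 0 reads throughout, Ptgds, Col3a1 and Col1a2 gave most of the sum, and 0 of the 7 tested markers passed. The part of these cells in the Pdgfra level was not tested.

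Gpr17, a G protein-coupled receptor of committed precursors (chromosome 18, 31942999 to 31949890), measured 16.0, 29.7 and 19.7 CPM in FCRE3, FCRE4 and FCRE5, against 19.0, 17.6 and 22.1 CPM in FF1, FF2 and FF4. FCRE4 lay above all other libraries and FCRE3 below them, so that the CAP1-KO libraries spanned the whole Control range. The log2 fold change was 0.11 (SE 0.20, 95% interval -0.35 to 0.57, limma adjusted p = 0.774), without FCRE4 it was -0.13 (limma adjusted p = 0.589), and against FF4 alone it was -0.06 (limma adjusted p = 0.969). Gpr17 overlaps Lims2 on the opposite strand, which averaged 2.62 CPM, and the sources used here do not say whether reads were counted by strand. Within a library, Gpr17 had 0.373, 0.541 and 0.409 times the CPM of Pdgfra in FCRE3, FCRE4 and FCRE5, against 0.380, 0.369 and 0.369 times in FF1, FF2 and FF4. The Control libraries were nearly alike in this ratio, and FCRE4 stood apart from the other 5 libraries.

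The next precursor genes, Lhfpl3, Matn4 and Neu4, encode membrane, matrix and enzyme proteins, and none of them showed a difference past the test or the depth. Lhfpl3, a tetraspan membrane protein (chromosome 5, 22746054 to 23275597), measured 20.2, 23.2 and 20.6 CPM in FCRE3, FCRE4 and FCRE5, against 17.0, 15.1 and 24.5 CPM in FF1, FF2 and FF4. All CAP1-KO libraries lay above FF1 and FF2 and below FF4. The log2 fold change of Lhfpl3 was 0.20 against all Control libraries (SE 0.16, 95% interval -0.18 to 0.57, limma adjusted p = 0.500), 0.39 without FF4 (limma adjusted p = 0.0101) and -0.19 against FF4 alone (limma adjusted p = 0.698). The direction of Lhfpl3 therefore depended on which Control libraries were used. Lhfpl3 spans several noncoding genes on both strands, of which 6030443J06Rik averaged 0.765 CPM.

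Matn4, a matrilin of the extracellular matrix (chromosome 2, 164389393 to 164405160), measured 1.74, 2.30 and 1.66 CPM in FCRE3, FCRE4 and FCRE5, against 1.96, 2.32 and 2.93 CPM in FF1, FF2 and FF4. Each CAP1-KO library lay below FF4 and FF2, and FCRE4 lay above FF1. For Matn4 the log2 fold change was -0.23 (SE 0.15, 95% interval -0.56 to 0.11, limma adjusted p = 0.389). It was -0.45 against FF4 alone (limma adjusted p = 0.588) and -0.12 without FF4 (limma adjusted p = 0.572). Neu4, a sialidase (chromosome 1, 94020493 to 94028334), had 3, 7 and 2 reads in FCRE3, FCRE4 and FCRE5, against 1, 4 and 1 reads in FF1, FF2 and FF4. That makes 12 reads in CAP1-KO and 6 in Control, and only FCRE4 and FF2 held more than 3 reads. A difference in Neu4 was not detectable at this depth.

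Mbp, the gene of myelin basic protein (chromosome 18, 82475091 to 82585637), had the smallest standard error of the tested members. It measured 28.6, 32.7 and 33.4 CPM in FCRE3, FCRE4 and FCRE5, against 31.6, 32.9 and 37.0 CPM in FF1, FF2 and FF4. Only FCRE3 lay below all Control libraries, and only FF4 lay above all CAP1-KO libraries. For Mbp the log2 fold change was -0.10 (SE 0.08, 95% interval -0.29 to 0.09, limma adjusted p = 0.513). It was -0.23 against FF4 alone (limma adjusted p = 0.633) and -0.03 without FF4 (limma adjusted p = 0.775). The same locus also makes golli transcripts, which are known from neurons and immune cells, and values per gene do not separate them from myelin transcripts.

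**Figure D2:**
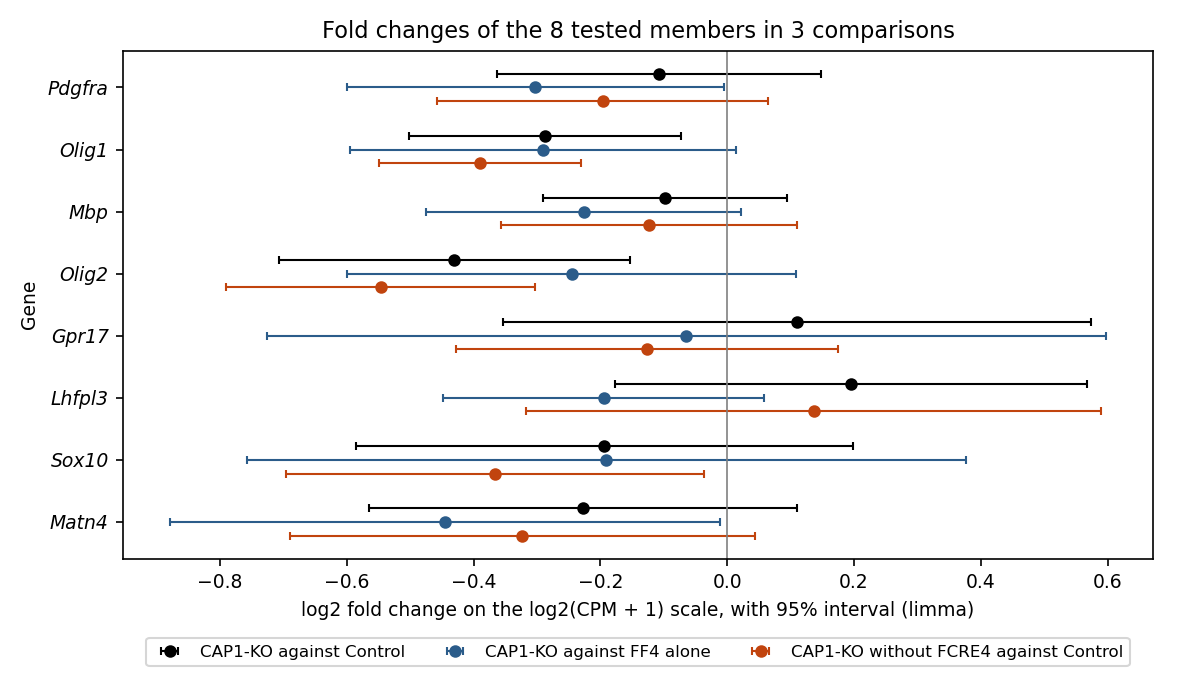
Log2 fold changes of the 8 tested genes on the log2(CPM + 1) scale, with limma 95% intervals, for CAP1-KO against Control (black), CAP1-KO against FF4 alone (blue) and CAP1-KO without FCRE4 against Control (orange). With all libraries (black) only Olig1 and Olig2 have intervals that leave out 0. Those of Pdgfra and Matn4 leave it out against FF4 alone, and those of Olig1, Olig2 and Sox10 without FCRE4. Gpr17 and Lhfpl3 lie right of 0 with all libraries and left of 0 against FF4 alone.

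Per length of annotated exons, the order of the members was nearly the same in both groups. In CAP1-KO libraries Olig1 had 21.0 ± 2.72 CPM per kb, Olig2 8.99 ± 1.36, Lhfpl3 6.64 ± 0.50, Pdgfra 4.86 ± 0.60, Gpr17 4.20 ± 1.36, Mbp 3.73 ± 0.31, Sox10 2.16 ± 0.58 and Matn4 0.367 ± 0.067 (SD, n = 3). In Control libraries Olig1 had 25.6 ± 1.54 CPM per kb, Olig2 12.2 ± 1.40, Lhfpl3 5.87 ± 1.55, Pdgfra 5.24 ± 0.65, Mbp 3.997 ± 0.33, Gpr17 3.77 ± 0.45, Sox10 2.47 ± 0.28 and Matn4 0.464 ± 0.095 (SD, n = 3). Gpr17 and Mbp traded places between the groups, but they overlapped in both. Pdgfra and Gpr17 overlapped in CAP1-KO libraries only, and Lhfpl3 and Pdgfra in Control libraries only. The other neighbours in this order did not overlap, and Neu4 came last in both groups. The length used is the union of all annotated exons, which understates levels of genes with many isoforms such as Mbp.

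Much of the variation among members followed single libraries within a group. FCRE4 was the highest CAP1-KO library for 7 of the 8 tested members, all but Mbp, as it was for 38.3% of all tested genes. FCRE3 was the lowest CAP1-KO library for 6 of the 8, against 33.5% of all tested genes, and FF4 was the highest Control library for 5 of the 8, against 34.7%. FCRE4 lay above the mean of FCRE3 and FCRE5 by between 0.08 (Mbp) and 0.71 (Gpr17) on the log2(CPM + 1) scale. Compared with the mean of FF1 and FF2, FF4 differed by 0.58 for Lhfpl3, 0.33 for Matn4 and -0.28 for Olig2. Summed over the 9 genes, the level was 177, 230.1 and 193 CPM in FCRE3, FCRE4 and FCRE5, against 220.3, 206.5 and 236 CPM in FF1, FF2 and FF4. FCRE4 thus lay within the range of the Control libraries, and FCRE3 and FCRE5 lay below it. A list of 9 astrocyte markers, of which 0 of 8 tested passed, summed to 507.9, 628 and 553 CPM in FCRE3, FCRE4 and FCRE5, against 536, 452 and 612 CPM in FF1, FF2 and FF4. FCRE4 and FF4 were the highest libraries of their groups on that list too, and the part of astrocytes in the values of the lineage genes was not tested.

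**Figure D3:**
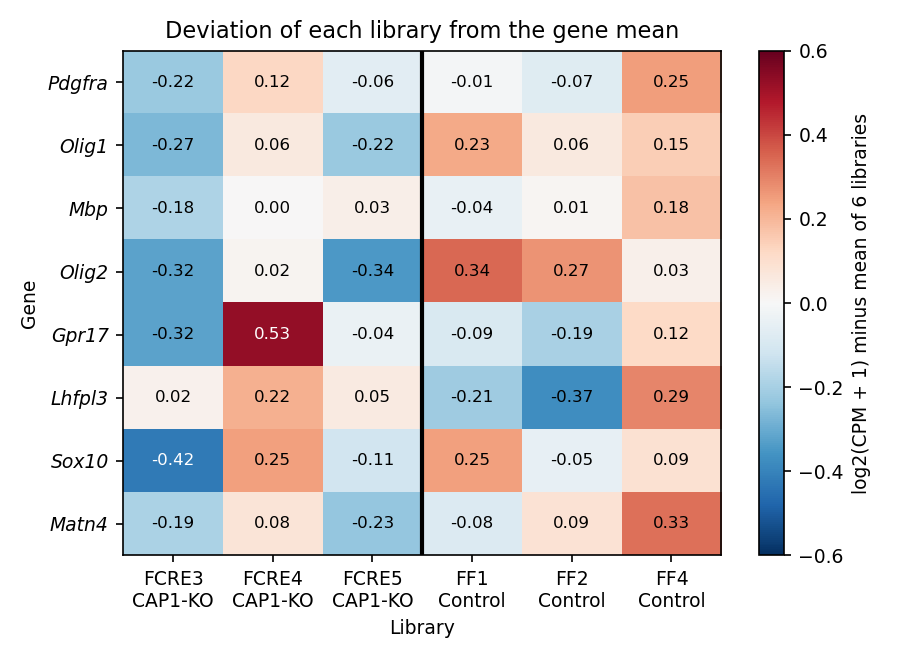
Deviation of each library (columns, CAP1-KO left of the black line and Control right of it) from the mean of the 6 libraries for each tested gene (rows), in log2(CPM + 1). FCRE3 is below the mean for all genes but Lhfpl3, FF4 is above it for all 8, and FCRE4 is at or above it for all 8, most for Gpr17 (0.53).

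Against FF4 alone, all 8 tested members had a negative log2 fold change, as did 49.2% of all tested genes. Their median was -0.24, against 0.00 over all tested genes. For 6 of them (all but Sox10 and Gpr17) every CAP1-KO library lay below FF4, as it did for 27.9% of all tested genes. None of the 8 passed the test, where 0.396% of all genes passed, and FF4 is a single library that is assumed to vary like the CAP1-KO libraries. With FCRE4 left out as well, 3 members passed, Olig1 (-0.39, limma adjusted p = 0.0097), Pdgfra (-0.39, limma adjusted p = 0.0179) and Olig2 (-0.36, limma adjusted p = 0.0405), beside 7.38% of all tested genes. These members share the FF4 value of 1 library, and the comparisons share the CAP1-KO libraries, so they are not separate pieces of evidence.

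Other genes of the lineage were grouped by stage, and in none of these lists did a gene pass the test. Of 15 other precursor genes, all tested, 8 had a negative and 7 a positive log2 fold change, with a median of -0.06, or -0.15 against FF4 alone. The most abundant of them were the receptor phosphatase Ptprz1, the matrix proteoglycans Vcan and Bcan, and Luzp2. Ptprz1 measured 597, 611 and 625 CPM in FCRE3, FCRE4 and FCRE5, against 684, 670.1 and 680.2 CPM in FF1, FF2 and FF4. Its groups did not overlap, which was so with CAP1-KO lower for 14.6% of all tested genes. The difference was small, a log2 fold change of -0.15 (SE 0.05, limma adjusted p = 0.140), or -0.15 against FF4 alone. Radial glia express Ptprz1 too. Luzp2 measured 70.2, 76.3 and 73.1 CPM in CAP1-KO, against 89.6, 78.4 and 88.2 CPM in Control (log2 fold change -0.22, limma adjusted p = 0.116, and -0.27 against FF4 alone). The groups did not overlap for Luzp2 either. Vcan (0.00, limma adjusted p = 0.988) and Bcan (-0.06, limma adjusted p = 0.854) overlapped between groups, and their log2 fold changes against FF4 alone were 0.12 for Vcan and -0.32 for Bcan.

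Cspg4, the NG2 proteoglycan of precursors and of pericytes, was singled out after its values were seen. It measured 15.1, 18.52 and 16.1 CPM in FCRE3, FCRE4 and FCRE5, against 24.0, 23.0 and 21.8 CPM in FF1, FF2 and FF4. The groups did not overlap, FF4 included, which was so with CAP1-KO lower for 14.6% of all tested genes. The log2 fold change of -0.45 (SE 0.08) was the lowest on the list but did not pass the test (limma adjusted p = 0.0618). Against FF4 alone it was -0.38 (limma adjusted p = 0.525).

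Genes of committed and newly formed oligodendrocytes had a median log2 fold change of 0.08, or 0.03 against FF4 alone, with 4 negative and 7 positive of 11 tested out of 14 listed. The most abundant were Fyn, a kinase used in myelination (-0.10, limma adjusted p = 0.383), the deacetylase Sirt2 (0.03, limma adjusted p = 0.752), Myt1 (0.24, limma adjusted p = 0.253) and Rras2 (-0.15, limma adjusted p = 0.219), of which Fyn and Myt1 are also made by neurons or neural progenitors. Against FF4 alone the log2 fold change was 0.03 for Fyn, 0.03 for Sirt2, 0.26 for Myt1 and -0.06 for Rras2. Myrf, the factor that switches on myelin genes, measured 1.31, 1.47 and 1.08 CPM in CAP1-KO, against 1.22, 0.863 and 1.45 CPM in Control, and Nkx6-2 had 0 reads in every library. Tcf7l2, a Wnt pathway factor of newly formed oligodendrocytes and of thalamic neurons, was named after its values were seen. It measured 10.3, 9.41 and 7.96 CPM in FCRE3, FCRE4 and FCRE5, against 3.56, 3.13 and 7.89 CPM in FF1, FF2 and FF4. Here FF4 lay next to FCRE5, so that the log2 fold change of 0.89 (limma adjusted p = 0.125) was 0.20 against FF4 alone (limma adjusted p = 0.779).

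Myelin genes were low in all libraries. Of 15 listed, 8 were tested, with 3 negative and 5 positive log2 fold changes and a median of 0.16; against FF4 alone the median was -0.02. Among the most abundant were Cnp (22.01 ± 1.995 CPM in CAP1-KO and 18.6 ± 6.31 CPM in Control, limma adjusted p = 0.437), Plekhb1 (7.08 ± 1.02 CPM in CAP1-KO and 4.91 ± 1.42 CPM in Control, limma adjusted p = 0.169) and Ermn (3.06 ± 0.45 CPM in CAP1-KO and 3.55 ± 0.57 CPM in Control, limma adjusted p = 0.498), each with n = 3. Against FF4 alone the log2 fold change was -0.23 for Cnp, 0.09 for Plekhb1 and -0.0029 for Ermn. Cnp in FF4 (25.9 CPM) exceeded all CAP1-KO libraries (20.5 to 24.3 CPM), and FF1 and FF2 (15.2 and 14.7 CPM) lay below them. Genes of mature myelin were nearly absent, with Mobp at 0 reads in every library and Mag at most 0.138 CPM.

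Cldn11, a tight junction protein of myelin and of the arachnoid layer of the meninges, had the highest log2 fold change of the myelin list (1.51, limma adjusted p = 0.119) and was named after its values were seen. It measured 0.563, 4.32 and 4.61 CPM in FCRE3, FCRE4 and FCRE5, against 0.224, 0.208 and 0.363 CPM in FF1, FF2 and FF4. The libraries with high Cldn11, FCRE4 and FCRE5, were those with the high meningeal sums given above, whose part in it was not tested.

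Signals that act on the lineage had a median log2 fold change of -0.07, or -0.004 against FF4 alone, with 12 negative and 8 positive of 20 tested out of 21 listed. The most abundant were Id2, an inhibitor of bHLH factors (-0.17, limma adjusted p = 0.328), Igf1r, the IGF1 receptor (-0.25, limma adjusted p = 0.256), Lingo1, a brake on differentiation (-0.31, limma adjusted p = 0.111), and Fgfr1 (-0.29, limma adjusted p = 0.197). Against FF4 alone the log2 fold change was -0.03 for Id2, 0.06 for Igf1r, -0.17 for Lingo1 and 0.00 for Fgfr1. The negative values of Igf1r and Fgfr1 were thus not seen against FF4 alone. Lingo1 was the only one of these 4 whose groups did not overlap, as was so with CAP1-KO lower for 14.6% of all tested genes. It measured 124, 150.3 and 133 CPM in FCRE3, FCRE4 and FCRE5, against 179.7, 174 and 153 CPM in FF1, FF2 and FF4. Pdgfa, the ligand of PDGFRA, measured 12.9, 18.9 and 17.8 CPM in CAP1-KO, against 21.0, 20.3 and 18.2 CPM in Control (log2 fold change -0.27, limma adjusted p = 0.283, and -0.15 against FF4 alone). Shh, a morphogen that induces Olig2 in the ventral forebrain, measured 2.68, 1.91 and 2.27 CPM in CAP1-KO, against 0.705, 0.655 and 2.66 CPM in FF1, FF2 and FF4. FF4 again lay with the CAP1-KO libraries and apart from the other Control libraries. Pdgfa, Shh, Myrf, Nkx6-2, Mobp and Mag, and the markers Cdh19 and Foxd3, were also chosen after their values were seen.

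**Figure D4:**
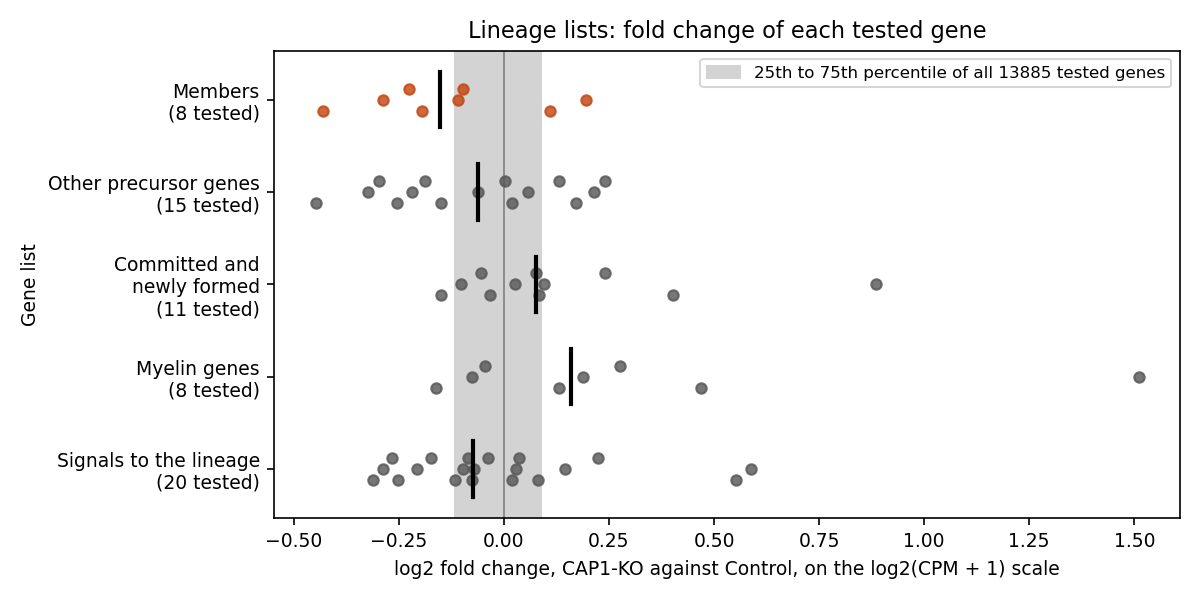
Log2 fold change (CAP1-KO against Control, log2(CPM + 1) scale) of each tested gene in the 5 lists, with points spread vertically for visibility only; black bars are list medians and the grey band spans the 25th to 75th percentile of all tested genes, from -0.12 to 0.09. Medians run from -0.15 for the 9-gene set (8 tested) to 0.16 for the myelin list, and no point passed the test.

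The genes most like the members over the 6 libraries were found by correlation of log2(CPM + 1) with the mean of the 8 standardised members, among 13823 other tested genes. They were Synj2 (Pearson r = 0.998), Ly6c1 (0.997), Aldh2 (0.988), Npas3 (0.986) and Bmerb1 (0.984). With 6 libraries and so many genes, high values arise easily, and r is given as a description only. Synj2 measured 3.75, 4.96 and 4.20 CPM in FCRE3, FCRE4 and FCRE5, against 4.68, 4.47 and 5.17 CPM in FF1, FF2 and FF4. This is the order of the mean of the standardised members: FF4 highest, FCRE4 next and FCRE3 lowest. Most single members did not follow that order. Olig1 and Olig2 were highest in FF1, and Sox10 and Gpr17 in FCRE4.

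In the authors' deposited table, none of the 9 members had an FDR under 0.05. There Olig2 had the lowest FDR, 0.132 beside a log2 fold change of -0.44, and Olig1 the next lowest, 0.174 beside -0.29. By the authors' log2 fold change Matn4 came between them, at -0.34 with an FDR of 0.621.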

How the data were processed

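RNA was measured in 3 CAP1-KO and 3 Control libraries of E18.5 cortex. Per the labels' protocols, libraries were poly(A) selected and strand-specific, and the submitters' processing notes name STAR, edgeR, GRCm38 and mm10. Which read counter and annotation were used is not given in the sources used here. Each library's column holds log2 normalized counts, per the file headers, and the deposited table adds the authors' log2 fold change, F score, p-value and FDR. The labels do not tie column names to replicate numbers, so libraries keep their column names and were grouped by genotype (FCRE with Cre, FF without). That replicates are separate biological samples rests on the titles alone.

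The shared lowest value (0.0584 CPM) was subtracted after taking antilogs. The remainders were whole multiples of 1 read (100% within 0.01, checked for values of lower read numbers only), at 31.2 to 37.3 reads per CPM. Larger values were rounded to whole reads without this check. Reads per CPM did not follow the read totals alone: FF1 had 32498524 reads at 31.2 and FF4 32443864 reads at 33.1. The deposited values thus carry a further scaling between libraries. Because the table held no counts, log2(CPM + 1) values were fitted with limma (version 3.58.1, trend on intensity; R 4.3.3), a scale that understates changes of low genes. Only genes averaging 1 CPM or more over all 6 libraries entered the fit. P-values were adjusted by Benjamini-Hochberg over all tested genes, with a threshold of 0.05. An exact permutation test of 3 against 3 libraries could reach no p under 0.1, so calls rest on the moderated variance of limma. No replicate pair agreed within sampling noise.

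The members, the lists and the comparison with FF4 were chosen with earlier results of these data known. Named genes are the members, called genes of each list, its 4 most abundant genes, and the 5 most correlated genes; other genes of the lineage lists are marked in the text, and marker genes are examples from fixed lists. A gene that this rule selects among the myelin genes is not reported here. Figures were drawn with matplotlib 3.10.9. Coordinates are RefSeq's for GRCm38.p6, and exon lengths GENCODE's. Alternatives were other scalings, limma-voom on recovered reads, no filter, a pseudocount of 0.1, the Xist level as a covariate, and leaving out each library.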

Additional observations from a re-analysis of the deposited data

How the results depend on the processing

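The median log2 fold change of the 8 tested members was negative in every alternative run, between -0.26 (without FCRE4) and -0.03 (without FCRE3) against all or part of the Control libraries, and between -0.36 (without FCRE4) and -0.18 (without FCRE3) in the alternatives of the comparison with FF4 alone. The number of members that passed was 0 under all alternatives that kept every library, and ranged from 0 to 2 when 1 library was left out (Olig2 and Lhfpl3 without FF4, Olig1 without FCRE4); against FF4 alone it ranged from 0 to 3 with 1 CAP1-KO library left out. The log2 fold change changed sign, without a call, for Pdgfra with the Xist covariate (0.013), for Gpr17 without FCRE4 (-0.13) and against FF4 alone (-0.064), and for Lhfpl3 against FF4 alone (-0.19). Over all genes, 134 passed; 88 did with no filter, 26 with the Xist covariate, 55 against FF4 alone, and between 36 and 3922 when 1 library was left out (42 without FF1, 60 without FF2, 3922 without FF4, 69 without FCRE3, 253 without FCRE4 and 36 without FCRE5). Against FF4 alone 6 passed with no filter, and between 74 and 1025 with 1 CAP1-KO library left out. The cause was not tested. Neu4 was fitted only with no filter (log2 fold change 0.07), where its few reads limit it. No paired analysis was possible because the library columns carry no replicate numbers of the labels.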
